A study of Sus scrofa with 8 samples.

Results

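Genes of the autophagy pathway, 10 in number and named ULK1, BECN1, ATG5, ATG7, ATG12, SQSTM1, MAP1LC3B, GABARAP, TFEB and LAMP2, were examined in the aging pig liver. They were chosen by name for their place in the pathway, from the start of an autophagosome to the lysosome, and matched by gene symbol to the Ensembl identifiers of the mRNA table. Of the 10 genes, 9 had an identifier among the 21607 listed mRNAs. ATG12 had none in the table and was dropped, so the system that couples ATG12 to ATG5 was seen here without it. A wider list of 111 autophagy and lysosome genes, of which 97 had an identifier, was used as the surrounding pathway.

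RNA-seq was performed on liver tissue from 4 unrelated female Yana pigs, an indigenous Chinese breed. The young livers (YL) came from 2 sows aged 180 days, and the old livers (OL) from 2 sows aged 8 years, with 1 rRNA-depleted library per sow. The labels name no treatment or genotype for either age. According to the paper, the young sows had never given birth, while the old sows had done so over many years. Age and birth history therefore cannot be told apart here. The paper also states that food was withheld from the pigs during the night before slaughter. All values are CPM, the reads of a gene scaled to a common library size, with no correction for gene length, so levels are compared between libraries and not between genes. With 2 sows per age, an exact permutation test of a single gene, two-sided, cannot give a p-value below 0.333.

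Autophagy is the route by which a cell encloses parts of its own cytoplasm in a membrane and delivers them to the lysosome for breakdown. The ULK1 kinase complex starts the process, a lipid kinase complex built on BECN1 marks the site, and a conjugation machinery that needs ATG7 and ATG5 attaches proteins of the ATG8 family, such as MAP1LC3B and GABARAP, to the growing membrane. Receptors such as SQSTM1 bind cargo, the lysosome membrane protein LAMP2 serves the last steps, and the transcription factor TFEB switches on many genes of autophagy and of the lysosome. In the liver the route is known for supplying nutrients in fasting, for the removal of damaged mitochondria and for the turnover of lipid droplets and protein aggregates. Much of its control acts on the proteins, through phosphorylation, conjugation and degradation, which mRNA levels do not show.

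The reads counted on listed mRNAs were 37.6 and 37.1 M in the young livers and 22.5 and 24.9 M in the old livers. All 12 hepatocyte markers were above 0 in every library, with a summed level of 5.046e+04 to 5.78e+04 CPM in the young and 3.439e+04 to 4.221e+04 CPM in the old livers. In old replicate 1, 14 of 14 listed interferon-stimulated genes lay above both young livers, with a summed level of 1889 CPM against 46.18 to 65 CPM in the other libraries. T and NK cell markers, 7 of 11 listed, summed to 225.9 CPM in that library and to 42.19 to 63.18 CPM elsewhere, but a single gene, CD247, gave 206 CPM of the former sum. The 7 other rows of that list summed to 19.9 CPM there and to 9.951 to 13.2 CPM elsewhere. Of the 2 identifiers of GZMA, 1 was listed at 0 in both young livers. The other was lower in the old livers, at 3.31 and 3.33 CPM in the young and 2.08 and 1.34 CPM in the old livers. MZB1, a plasma cell marker, was at 11.4 CPM in old replicate 1 and at 1.10 to 2.58 CPM elsewhere. Macrophage markers, 6 of 12 listed, summed to 252.1 and 273.1 CPM in the young and 349.8 and 387.7 CPM in the old livers. Most of that sum was C1QA, at 181 and 204 CPM in the young and 255 and 241 CPM in the old livers. Of the 6 markers, 4 were higher and 1 was lower in both old livers, beside 24.4% and 25.0% of all mRNAs. The lower one was MRC1, at 20.2 and 19.4 CPM in the young and 9.88 and 12.5 CPM in the old livers. Endothelial markers, 4 of 8 listed, spanned 35.46 to 39.39 CPM in the young and 39.52 to 65.7 CPM in the old livers. The sum joins opposite directions, since in old replicate 1 2 of the 4 lay above and 2 below both young livers. There LYVE1 was at 36.5 and PECAM1 at 23.8 CPM, against 8.90 and 8.01 CPM and 10.5 and 8.92 CPM in the young livers. KDR was at 2.26 and TEK at 3.14 CPM, against 10.6 and 9.87 CPM and 9.42 and 8.67 CPM. Stellate cell and fibroblast markers, 7 of 9 listed, spanned 19.4 to 38.47 CPM and 14.66 to 50.7 CPM, with LUM at 0 in young replicate 2. Cholangiocyte markers, 3 of 5 listed, stayed between 0.278 and 1.267 CPM, and the 1 of 7 skeletal muscle markers listed between 0.016 and 0.863 CPM. Erythroid markers, 3 of 6 listed, spanned 429.3 to 621.5 CPM in the young and 306 to 404.9 CPM in the old livers. Immediate early genes, 7 of 10 listed, summed to 15.13 and 18.2 CPM in the young and 108.8 and 336.1 CPM in the old livers. DUSP1 gave 65.2 CPM of the sum in old replicate 1 and FOS 206 CPM of that in old replicate 2. Of the 7 genes, 5 were higher in both old livers than in both young livers, where 24.4% of all mRNAs were. The part of these lists in the autophagy values was not tested, and in whole liver a gene read less because fewer cells of a type were present and a gene read less in each cell cannot be told apart.

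None of the 9 autophagy genes was called different between old and young livers in limma, which asked for an adjusted p-value under 0.05 and for a change beyond 1 on the log2 scale, and 0% of the 16898 mRNAs tested were called. The mean of log2(CPM + 1) was lower in the old livers for 6 genes and higher for 3 (LAMP2 counted as lower, although its mean CPM was 50.3 in the young and 51.0 in the old livers), and the median log2 fold change of the 9 was −0.10 against −0.02 over all mRNAs tested. At an unadjusted p-value under 0.05, 1 of the 9 genes, TFEB, passed in limma, where 15.7% of all mRNAs tested did. TFEB did not pass when any 1 of the 4 libraries was left out (unadjusted p-values of 0.0674 to 0.155 in limma), and none of the 9 genes passed in the exact or quasi-likelihood test of edgeR on whole reads. Both old livers lay above both young livers for 2 genes, TFEB and ULK1, where 24.4% of all mRNAs did so. Both old livers lay below both young livers for 1 gene, GABARAP, where 25.0% of all mRNAs did so. In the exact test of edgeR on whole reads, with the same thresholds, 3.16% of all mRNAs and none of the 9 genes were called. Read against these shares, 3 genes of 9 without overlap between the ages were no more than all mRNAs gave.

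**Figure D1:**
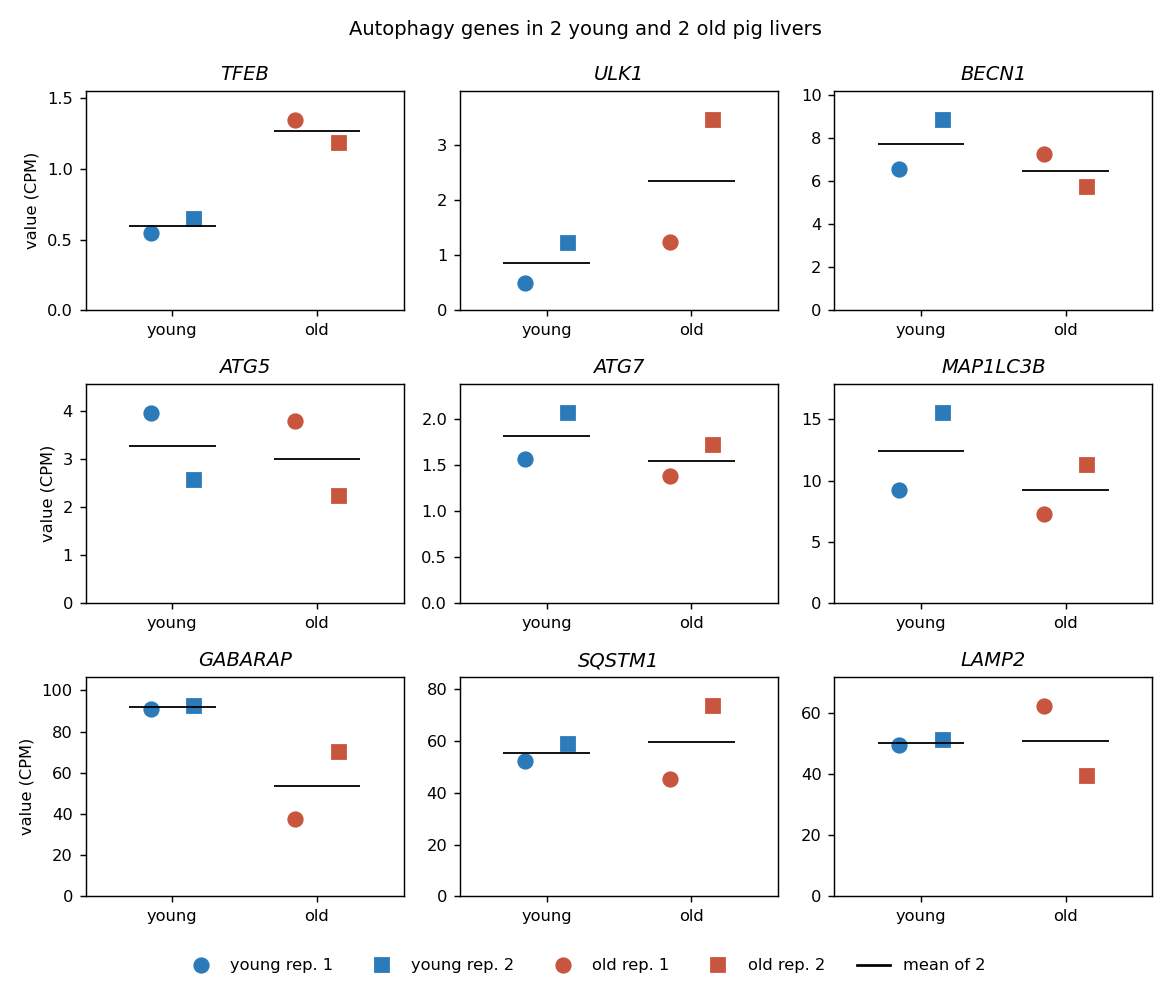
CPM of the 9 autophagy genes on the vertical axis of each panel, from 0, in 2 young (blue) and 2 old (red) livers, with replicate 1 as circles, replicate 2 as squares and a line at the mean of each age. TFEB and ULK1 are higher in both old livers than in both young livers, GABARAP is lower in both, and the ages overlap in the other 6 genes.

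TFEB (ENSSSCG00000001621), the transcription factor of the lysosome gene program, stood at 0.544 and 0.647 CPM in YL and at 1.35 and 1.18 CPM in OL. The ages were apart, and the replicates of each age lay close together, with a ratio of 1.19 within the young and 1.14 within the old pair. The mean went from 0.596 ± 0.0728 CPM (SD, n = 2) to 1.27 ± 0.117 CPM (SD, n = 2), a ratio of 2.13. Few reads stood behind these values, 50 and 56 in YL and 83 and 85 in OL. The 95% Poisson intervals, which cover counting error only, ran up to 0.718 and 0.84 CPM in YL and began at 1.07 and 0.945 CPM in OL, so that the ages did not overlap at this depth either. On the log2(CPM + 1) scale, which understates the change of a gene with low values, the log2 fold change was 0.51 (SE 0.12) and the adjusted p-value in limma was 0.255. On whole reads the log2 fold change was 1.28, with an adjusted p-value of 0.581 in the exact test of edgeR. TFEB thus differed by more than the spread within either pair of sows but did not pass any test adjusted over all mRNAs.

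The relatives of TFEB, which bind the same kind of DNA element, were not uniform. TFE3 was measured at 2.82 and 2.88 CPM in YL and at 4.45 and 5.60 CPM in OL (log2 fold change 0.64, SE 0.15). MITF was measured at 3.87 and 4.99 CPM in YL and at 2.44 and 2.24 CPM in OL (log2 fold change −0.69, SE 0.16). The ages were apart for both genes, TFE3 being higher and MITF lower in each old liver. The adjusted p-values in limma were 0.255 and 0.254, so neither was called. The ratio of TFEB to MITF within a library was 0.141 and 0.130 in YL and 0.554 and 0.528 in OL, a 4-fold difference. The ratio of TFE3 to MITF was 0.730 and 0.576 in YL and 1.83 and 2.50 in OL, a 3.29-fold difference. A ratio within a library does not depend on how that library was scaled, and both ratios kept the ages apart. These and the other ratios were picked after the values had been seen and were not tested, and their sizes carry the lengths of both genes, so only the change of a ratio between livers can be read. Of the 5 transcription factor genes tested, 4 had a higher mean in the old livers and 3 were higher in both (24.4% of all mRNAs were), with a median log2 fold change of 0.51.

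ULK1 (ENSSSCG00000009742), the kinase that starts autophagosome formation when nutrients are short, was measured at 0.501 and 1.21 CPM in YL and at 1.24 and 3.45 CPM in OL. Old replicate 2 was high and young replicate 1 low, while young replicate 2 and old replicate 1 were almost level. With 105 and 76 reads, the intervals of those neighbouring livers, 0.992 to 1.47 and 0.973 to 1.55 CPM, covered each other. The ratio of the means was 2.73, of the same size as the ratio of 2.42 within the young and 2.80 within the old pair. In limma the log2 fold change was 0.79 (SE 0.46, adjusted p-value 0.511), and on whole reads it was 1.64 in the exact test of edgeR (adjusted p-value 0.505). It was 1.29 without old replicate 1 and 0.29 without old replicate 2, so its size rested on the latter library.

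ULK2, the close paralog of ULK1, was measured at 1.18 and 1.57 CPM in YL and at 0.439 and 0.571 CPM in OL. Both old livers were below both young livers, the opposite placing to ULK1, with a log2 fold change of −0.65 (SE 0.15) and an adjusted p-value of 0.251 in limma. ULK1 over ULK2 gave 0.426 and 0.772 in YL and 2.81 and 6.05 in OL, a 7.19-fold difference in which the ages did not overlap. Only 27 and 41 reads of ULK2 stood behind the values of the old livers. Of the 4 tested genes of the initiation complex, 2 had a higher and 2 a lower mean in the old livers.

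**Figure D2:**
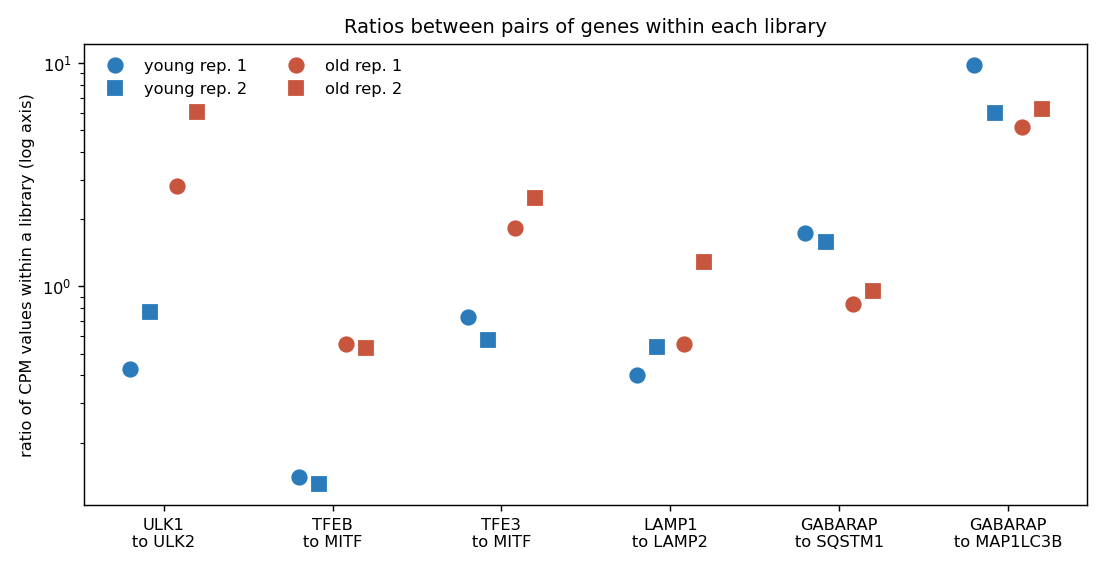
Ratio of the CPM of 2 genes within each library, on a log axis, for 6 pairs in 2 young (blue) and 2 old (red) livers. The ratios of ULK1 to ULK2, TFEB to MITF, TFE3 to MITF and LAMP1 to LAMP2 are higher in both old livers, that of GABARAP to SQSTM1 is lower in both, and that of GABARAP to MAP1LC3B overlaps between the ages.

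BECN1 (ENSSSCG00000017386), the scaffold of the lipid kinase complex that marks the site of a new autophagosome, was measured at 6.55 and 8.86 CPM in YL and at 7.25 and 5.74 CPM in OL. The highest value was a young and the lowest an old liver, and the ages alternated in between. The difference was within that spread (log2 fold change −0.21, SE 0.22, adjusted p-value 0.707 in limma). PIK3C3, the catalytic lipid kinase of the same complex, was measured at 2.59 and 2.23 CPM in YL and at 2.63 and 1.66 CPM in OL. It overlapped between the ages as well, with a log2 fold change of −0.13 (SE 0.21, adjusted p-value 0.820). VMP1, a membrane protein of the endoplasmic reticulum needed at this step, was named for its small p-value and for ages that do not overlap. It was measured at 11.0 and 11.4 CPM in YL and at 6.63 and 4.91 CPM in OL, and its log2 fold change was −0.86 (SE 0.18, adjusted p-value 0.241). Of the 10 nucleation genes, 7 had a lower mean in the old livers, beside 52.9% of all mRNAs tested. Of the same 10 genes, 4 were lower in both and 1 was higher in both, beside 25.0% and 24.4% over all mRNAs. The difference from those shares was not tested. The 7 genes of membrane supply had 4 higher and 3 lower means, with a median log2 fold change of 0.19.

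ATG5 (ENSSSCG00000004370), whose protein is joined to ATG12 and then helps to place ATG8 proteins on the membrane, was measured at 3.97 and 2.57 CPM in YL and at 3.80 and 2.23 CPM in OL. Each age held a higher and a lower liver, and the ratio within an age, 1.55 in YL and 1.71 in OL, was further from 1 than the ratio of 0.922 between the means. Its log2 fold change was −0.10 (SE 0.31, adjusted p-value 0.923 in limma), and it turned to 0.08 when all libraries were given equal mRNA totals. ATG7 (ENSSSCG00000011575), the activating enzyme at the head of both conjugation systems, was measured at 1.57 and 2.07 CPM in YL and at 1.38 and 1.71 CPM in OL. The lowest value was an old and the highest a young liver, with 85 to 179 reads per library, and the ages overlapped. The log2 fold change was −0.14 (SE 0.16, adjusted p-value 0.735 in limma), and 0.01 with equal mRNA totals. In the RefSeq annotation of a later assembly, ATG5 overlaps 1 other gene and ATG7 overlaps 3, and the strand setting of the counting is not given in the sources used here. The paper names a directional library kit. The overlap was taken over whole gene spans, introns included, so whether reads of such neighbours were counted with theirs was not tested.

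Among the other genes of the conjugation machinery, ATG10 and ATG4C were named for their small p-values and for ages that do not overlap. ATG10, the enzyme that passes ATG12 on to ATG5, was measured at 2.71 and 3.52 CPM in YL and at 0.699 and 1.06 CPM in OL. The ratio of its means was 0.282 and its log2 fold change −1.13 (SE 0.19, adjusted p-value 0.218 in limma). ATG4C, a protease of the family that trims ATG8 proteins, was measured at 2.83 and 2.59 CPM in YL and at 0.601 and 1.21 CPM in OL, with a log2 fold change of −0.98 (SE 0.21, adjusted p-value 0.246). ATG16L1, which binds the ATG12 and ATG5 conjugate, was measured at 2.72 and 3.27 CPM in YL and at 3.79 and 3.01 CPM in OL and overlapped between the ages (log2 fold change 0.14, SE 0.17, adjusted p-value 0.752). Of the 9 conjugation genes tested, 7 had a lower mean in the old livers, beside 52.9% of all mRNAs tested. Of the same 9 genes, 4 were lower in both and 0 were higher in both, beside 25.0% and 24.4% over all mRNAs.

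GABARAP (ENSSSCG00000017936), a member of the ATG8 family that acts late in the closing and maturing of autophagosomes, was measured at 90.9 and 92.6 CPM in YL and at 37.6 and 70.0 CPM in OL. The young livers were nearly equal, with a ratio of 1.02, while the old livers differed by a ratio of 1.86, and both lay below the young pair. The mean went from 91.8 ± 1.17 CPM (SD, n = 2) to 53.8 ± 22.9 CPM (SD, n = 2), a ratio of 0.586. Depth was not limiting for this gene, which had 2314 to 8352 reads per library. Its log2 fold change was −0.83 (SE 0.36, adjusted p-value 0.406 in limma) and −0.57 on whole reads (adjusted p-value 0.856 in the exact test of edgeR). Without old replicate 1, the library with the high interferon-stimulated genes, it was −0.39, and without old replicate 2 it was −1.26.

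MAP1LC3B (ENSSSCG00000002655), the ATG8 protein most used as a mark of autophagosomes, was measured at 9.28 and 15.6 CPM in YL and at 7.28 and 11.2 CPM in OL. The lowest value was an old and the highest a young liver, and the ages alternated in between. Its log2 fold change was −0.37 (SE 0.36, adjusted p-value 0.692 in limma), which was within the spread of the replicates. MAP1LC3A, its paralog, was measured at 2.29 and 4.66 CPM in YL and at 1.202 and 6.65 CPM in OL, so that the old pair enclosed the young pair. GABARAPL1, the paralog of GABARAP, was measured at 39.8 and 29.1 CPM in YL and at 15.2 and 33.0 CPM in OL. GABARAPL2 was measured at 7.65 and 12.7 CPM in YL and at 6.83 and 7.48 CPM in OL. GABARAPL2, like GABARAP, was lower in each old liver than in either young liver, with a log2 fold change of −0.42 (SE 0.28, adjusted p-value 0.570 in limma). All 5 ATG8 genes tested had a lower mean on the log2 scale in the old livers, where 52.9% of all mRNAs tested did. Their median log2 fold change was −0.42. MAP1LC3A counted as lower, although its mean CPM was 3.47 in the young and 3.93 in the old livers. However, 0 of the 5 had an unadjusted p-value under 0.05 in limma, where 15.7% of all mRNAs tested did. The direction of MAP1LC3A, −0.07 (SE 0.77, adjusted p-value 0.977), turned to 0.11 with equal mRNA totals, 0.02 with quantile normalization and 0.08 with TMM scaling, and the other 4 genes kept theirs under each scaling. All 5 lay below both young livers in old replicate 1, and 2 of the 5 did so in old replicate 2. The share of all mRNAs that did so in a single old liver was not counted, while 25.0% did so in both.

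SQSTM1 (ENSSSCG00000014016), the receptor that carries ubiquitin-tagged cargo into autophagosomes and is itself broken down there, was measured at 52.3 and 58.6 CPM in YL and at 45.3 and 73.5 CPM in OL. The old livers held both the lowest and the highest value and enclosed the young pair. Its log2 fold change was 0.06 (SE 0.30, adjusted p-value 0.948 in limma), and it was 0.40 without old replicate 1 and −0.28 without old replicate 2. In the later assembly SQSTM1 overlaps 1 other gene, MRNIP. The gene is also a target of the stress factor NFE2L2. Of the 8 listed targets of that factor, 3 were lower and 1 was higher in both old livers, beside 25.0% and 24.4% over all mRNAs, and their summed level was 64.71 and 84 CPM in YL and 38.12 and 48.24 CPM in OL. The ratio of GABARAP to SQSTM1 was 1.74 and 1.58 in YL and 0.831 and 0.952 in OL, a fold of 0.536 without overlap. That of MAP1LC3B to SQSTM1 was 0.177 and 0.266 in YL and 0.161 and 0.153 in OL, a fold of 0.723.

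Of the 11 cargo receptor genes tested, SQSTM1 included, 4 had a higher and 7 a lower mean in the old livers, where 52.9% of all mRNAs tested had a lower mean. Of the same 11 genes, 5 were lower in both and 0 higher in both, beside 25.0% and 24.4% over all mRNAs. Of the 2 genes of the mitophagy signal, 1 had a higher and 1 a lower mean. NBR1, a receptor of similar build to SQSTM1, was measured at 13.7 and 13.97 CPM in YL and at 10.1 and 10.4 CPM in OL, with a log2 fold change of −0.40 (SE 0.11, adjusted p-value 0.274 in limma). It was lower in both old livers, and the sows of each age were close. FUNDC1, a receptor on mitochondria, was measured at 4.93 and 7.07 CPM in YL, 48.5 CPM in old replicate 1 and 3.40 CPM in old replicate 2. OPTN, a receptor for mitochondria and bacteria, was measured at 33.4 and 28.7 CPM in YL, 114 CPM in old replicate 1 and 20.5 CPM in old replicate 2. CALCOCO2, a receptor for bacteria, was measured at 8.07 and 8.46 CPM in YL, 17.1 CPM in old replicate 1 and 6.89 CPM in old replicate 2. These 3 genes and SCARB2, a lysosome membrane protein at 8.32 and 11.2 CPM in YL and 21.6 and 6.29 CPM in OL, were higher in old replicate 1, and lower in old replicate 2, than in either young liver. Their log2 fold changes went from 1.09 to −0.65 for FUNDC1, from 0.64 to −0.57 for OPTN, from 0.37 to −0.23 for CALCOCO2 and from 0.27 to −0.55 for SCARB2 when old replicate 1 was left out. TAX1BP1, a further receptor, was measured at 52.2 and 47.6 CPM in YL and 33.8 and 14.1 CPM in OL, and its log2 fold change of −1.15 (SE 0.49) became −1.75 without old replicate 1.

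These 5 genes were chosen after their values were seen, as those of the 97 listed autophagy genes that were more than 1 log2 unit higher in old replicate 1 than in old replicate 2. Another 6 genes, GABARAPL1 and MAP1LC3A among them, were more than 1 log2 unit higher in old replicate 2. Old replicate 1 minus old replicate 2 ran from −1.04 to −1.8 for these 6 and from 1.2 to 3.49 for the 5. Old replicate 1 is the library in which all 14 interferon-stimulated genes were high, as were CD247 of the T and NK cell markers and MZB1, and their part in the values of these receptors was not tested. Over the 97 genes the median difference from the young mean was −0.12 in old replicate 1 and −0.05 in old replicate 2, with genes on both sides of 0 in each. The 5 ATG8 genes were all lower in old replicate 1 than in old replicate 2, by 0.12 to 1.8 on the log2(CPM + 1) scale.

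**Figure D3:**
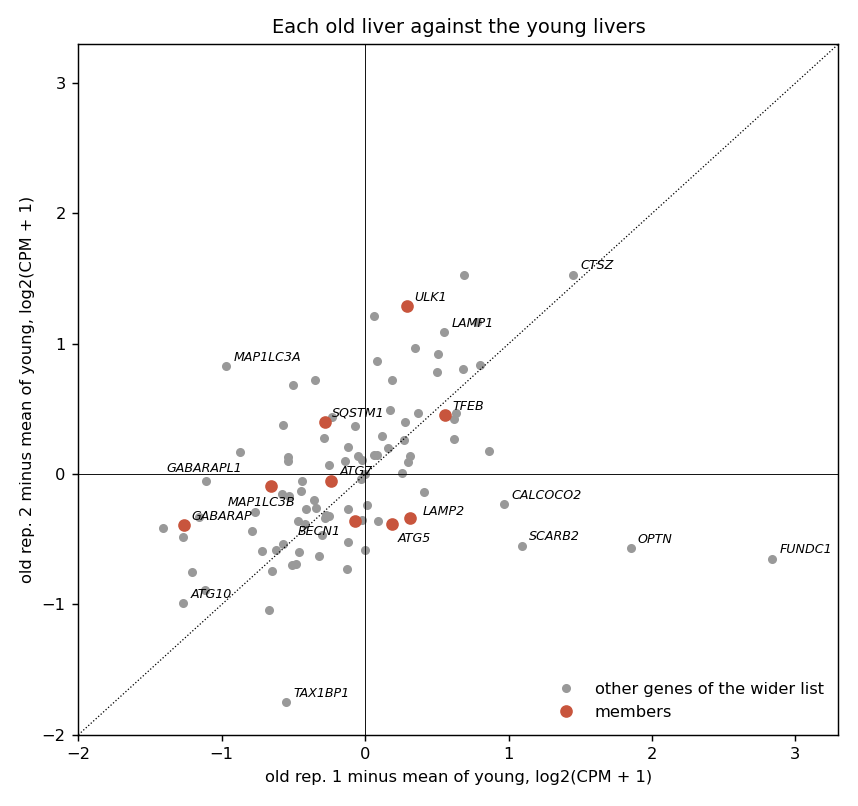
Each of the 97 listed autophagy and lysosome genes as a point, with its difference from the mean of the young livers in log2(CPM + 1) in old replicate 1 (horizontal) and old replicate 2 (vertical), the 9 genes of the report in red and a dotted line where both old livers are equal. FUNDC1, OPTN, SCARB2 and CALCOCO2 lie far right and below the zero line, being high in old replicate 1 only, while TFEB lies near the dotted line and ULK1 above it.

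LAMP2 (ENSSSCG00000012604), a membrane protein of the lysosome that takes part in its fusion with autophagosomes and in chaperone-mediated autophagy, was measured at 49.4 and 51.2 CPM in YL and at 62.4 and 39.6 CPM in OL. The young livers lay between the old livers, which differed by a ratio of 1.58. Its log2 fold change was −0.02 (SE 0.27, adjusted p-value 0.986 in limma) and turned to 0.21 with equal mRNA totals, 0.16 with quantile normalization and 0.19 with TMM scaling. LAMP1, a relative of LAMP2, was measured at 19.8 and 27.4 CPM in YL and at 34.6 and 50.7 CPM in OL. It was higher in each old liver, with a log2 fold change of 0.82 (SE 0.29, adjusted p-value 0.344 in limma). The ratio of LAMP1 to LAMP2 was 0.401 and 0.536 in YL and 0.554 and 1.28 in OL, where young replicate 2 and old replicate 1 were close.

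Other lysosome genes went both ways. CTSZ, a lysosomal protease, had the smallest p-value of the wider list, with 10.3 and 11.6 CPM in YL and 31.6 and 33.4 CPM in OL. Its ratio of means was 2.98 and its log2 fold change 1.49 (SE 0.13), with an adjusted p-value of 0.213 in limma, 0.0325 in the exact test and 0.276 in the quasi-likelihood test of edgeR. It was the single gene of the wider list that the exact test called. ATP6V1A, a subunit of the proton pump that acidifies lysosomes, was measured at 3.60 and 3.14 CPM in YL and at 1.93 and 2.01 CPM in OL (log2 fold change −0.56, SE 0.12, adjusted p-value 0.247 in limma). PLEKHM1, an adaptor for the fusion of autophagosomes with lysosomes, was measured at 0.642 and 0.832 CPM in YL and at 1.67 and 1.32 CPM in OL (log2 fold change 0.52, SE 0.15, adjusted p-value 0.279). These 3 genes were named for their small p-values and for ages that do not overlap, so that their separation is a description of the choice. Of the 11 genes of the lysosome membrane tested, 6 had a higher and 5 a lower mean, and of the 19 lysosomal enzymes 10 had a higher and 9 a lower mean. In both old livers, 5 of the 11 membrane genes were higher (45.5%) and 3 lower (27.3%). Of the 19 enzymes, 7 were higher (36.8%) and 5 lower (26.3%) in both, beside 24.4% and 25.0% over all mRNAs. The difference from those shares was not tested. ATP6V1B2, a further pump subunit, was listed at 0 in all 4 libraries and was not tested. The 13 fusion genes were split into 6 higher and 7 lower means, with a median log2 fold change of −0.00. Of these 13 genes, 4 were higher (30.8%) and 2 lower (15.4%) in both old livers.

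**Figure D4:**
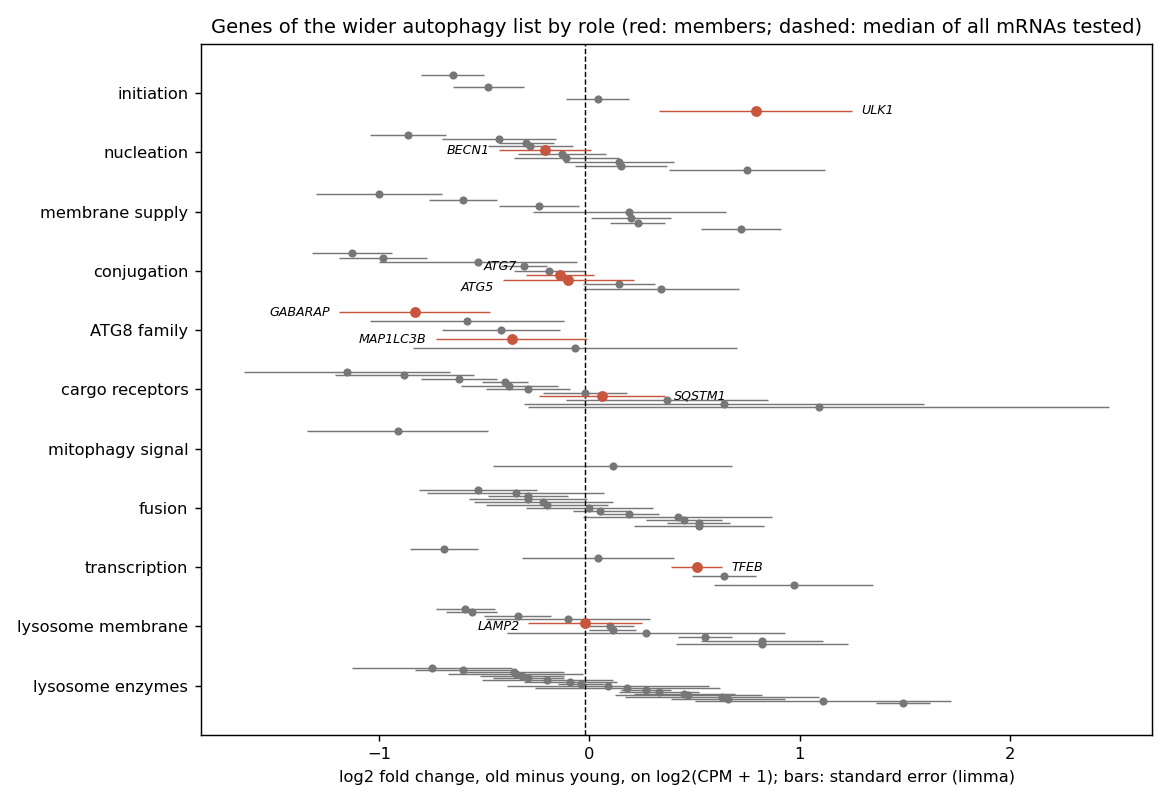
Log2 fold change (old minus young, limma on log2(CPM + 1)) on the horizontal axis, with its standard error as a bar, of 96 tested autophagy and lysosome genes grouped by role, the 9 genes of the report in red and named, and the median of all mRNAs tested (−0.02) as a dashed line. The 5 ATG8 genes lie left of 0, the transcription factors lie mostly right of it around a median of 0.51, and the lysosome groups spread to both sides.

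Across the wider list, 96 genes were tested and 0 were called in limma, with 42 higher and 54 lower means in the old livers and a median log2 fold change of −0.09. Lower means were 56.2% of these 96 genes and 52.9% of all mRNAs tested. At an unadjusted p-value under 0.05, 6 were higher and 11 lower, where 1145 and 1509 of the 16898 mRNAs were. Both old livers lay above both young livers for 23 genes (24.0%) and below for 32 (33.3%), beside 24.4% and 25.0% of all mRNAs. Without the 9 genes the counts were 21 and 31 of 87. In edgeR, 4 genes of the wider list had an unadjusted p-value under 0.05 in the exact test and 5 in the quasi-likelihood test. Over all 16898 mRNAs tested, 2198 and 2473 did. The count of lower means depended on the scaling, being 41 of 96 with equal mRNA totals and 44 with TMM scaling.

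The direction of ULK1, TFEB, BECN1, MAP1LC3B and GABARAP was the same under each of the 16 other settings that could be fitted for them (15 for TFEB, whose mean was under the stricter filter of 1 CPM). This is a statement of sign only. BECN1 was at −0.01 with equal mRNA totals, where ATG7 was at 0.01, and MAP1LC3B was at −0.03 without young replicate 2. ATG5, ATG7, SQSTM1 and LAMP2 turned under at least 1 setting or when 1 library was left out. On the log2 scale 6 of the 9 genes had a lower mean in the old livers on the deposited values, 3 with equal mRNA totals, 4 with TMM scaling and 5 with quantile normalization. The deposited mRNA values summed to less in the old livers, 365330 and 346173 CPM, than in the young livers, 408898 and 428910 CPM. None of the 9 genes was called under any of these settings.

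**Figure D5:**
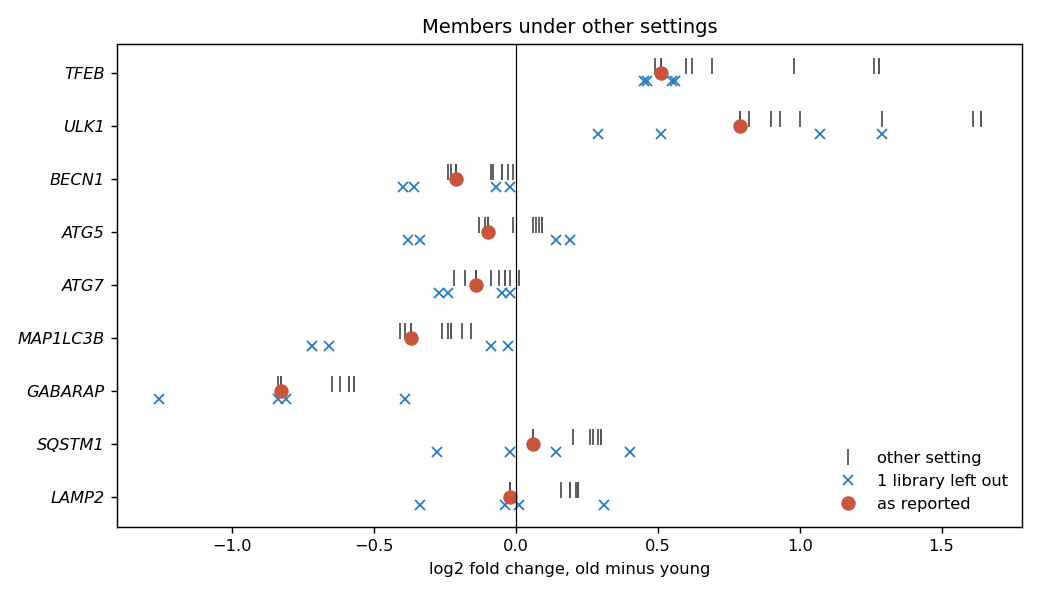
Log2 fold change (old minus young) of the 9 autophagy genes as reported (red circles), under other pseudocounts, filters, scalings, designs and tests (black ticks), and with 1 library left out (blue crosses). TFEB and ULK1 stay right of 0 and BECN1, MAP1LC3B and GABARAP left of 0 throughout, while ATG5, ATG7, SQSTM1 and LAMP2 have values on both sides.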

How the data were processed

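The authors made the CPM values. They used TopHat2 2.0.14 to align reads to the Sscrofa10.2 genome and StringTie 1.2.3 for assembly, and they name the values TPM, given by Salmon 0.6.0. As deposited, at least 99.974% of the mRNA values above 0 lay within 0.1 read of a whole read count, the worth of 1 read being the same for all genes of a library, so they were taken as CPM of implied totals of 91.8 and 86.6 M (young) and 61.5 and 71.8 M (old) reads. Replicates were separate sows and were not pooled. The lncRNA, circRNA and miRNA tables were not used here, and the base sequence and position of the genes were not analysed here.

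Symbols, which 11654 of the 21607 identifiers had, came from an Ensembl name table. mRNAs above 0 in at least 2 of 4 libraries were fitted with limma 3.58.1 on log2(CPM + 1), with Benjamini-Hochberg adjustment over all of them. A gene was called at an adjusted p-value under 0.05 if its log2 fold change was beyond 1 in size. The exact and quasi-likelihood tests of edgeR 4.0.16 and DESeq2 1.42.0 were run on whole reads, in R 4.3.3. Other settings were pseudocounts of 0.1 and 0.5, no filter or a mean of at least 1 CPM, equal mRNA totals, quantile normalization, TMM scaling, a mean-variance trend, a replicate block and each library left out. The fits were tested on simulated counts. Values were read and plotted with Python 3.11.15, numpy 2.4.6, pandas 2.3.3 and matplotlib 3.10.9.

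Named genes were the 10 members, 10 paralogs or partners, and up to 4 further genes per direction with the smallest limma p-value among those with an unadjusted p-value under 0.05, a mean of at least 1 CPM and no overlap between ages. A further 5 were chosen after their values were seen. The members and all lists, the wider autophagy list and the markers alike, were chosen with earlier results of these data known. The summed level of 1 marker list is not reported here.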

Additional observations from a re-analysis of the deposited data

How the results depend on the processing

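The count of mRNAs called was 0 in limma and became 2 with a mean of at least 1 CPM, 534 (457 higher, 77 lower) in the exact test of edgeR and 880 (683 higher, 197 lower) in DESeq2, and 0 with each library left out. The count of the 9 genes at an unadjusted p-value under 0.05 went from 1 to 0 with a mean of at least 1 CPM (which left TFEB untested), with a mean-variance trend, in both tests of edgeR and in DESeq2, and ranged from 0 to 1 with a library left out, being 0 without young replicate 1 and without young replicate 2, 1 without old replicate 1 (ULK1, p-value 0.0423 in limma) and 1 without old replicate 2 (GABARAP, 0.0135). TFEB passed in none of these fits (0.0674 to 0.155). The count of the wider list at that p-value went from 17 to 9 with a pseudocount of 0.1, 5 with a mean of at least 1 CPM, 7 with a trend, 4 in the exact test, 5 in the quasi-likelihood test and 9 in DESeq2. With a library left out it ranged from 5 (without young replicate 2) to 14, and was 10 without old replicate 1. Over all mRNAs tested, the count at that p-value was 2654 in limma, 2438 with a pseudocount of 0.1 and 2415 with a trend. It was 2198 in the exact test, 2473 in the quasi-likelihood test and 2453 in DESeq2. A mean of at least 1 CPM left 9798 mRNAs and 86 genes of the wider list to test, and 1518 of those mRNAs passed. The cause of these changes was not tested.

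Of 478 fold changes of 30 named genes under 16 other settings, 440 kept their direction and side of the threshold, 2 were called (CTSZ in the exact test and DESeq2) and 36 reversed. With equal mRNA totals ATG5 was at 0.08, ATG7 at 0.01, LAMP2 at 0.21, MAP1LC3A at 0.11 and PIK3C3 at 0.03. With quantile normalization LAMP2 was at 0.16 and MAP1LC3A at 0.02. With TMM scaling ATG5 was at 0.06, LAMP2 at 0.19, MAP1LC3A at 0.08 and PIK3C3 at 0.01. In both tests of edgeR ATG5 was at 0.09, LAMP2 at 0.22, MAP1LC3A at 0.37 and PIK3C3 at 0.03, and in DESeq2 they were at 0.07, 0.19, 0.34 and 0.01. With a library left out the ranges were −0.38 to 0.19 for ATG5, −0.28 to 0.40 for SQSTM1, −0.34 to 0.31 for LAMP2, −0.97 to 0.83 for MAP1LC3A, −0.36 to 0.09 for PIK3C3, −0.65 to 2.84 for FUNDC1, −0.57 to 1.85 for OPTN, −0.55 to 1.09 for SCARB2 and −0.23 to 0.97 for CALCOCO2. A left-out library leaves 1 sow in an age, assumed to vary like the other age.

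All mRNAs without overlap between ages were 4119 higher and 4219 lower on the deposited values, 5076 and 2987 with equal mRNA totals, 3441 and 4668 with quantile normalization and 4970 and 3171 with TMM scaling; ULK1 overlapped with quantile normalization, which left 2 of the 9 genes apart. The median log2 fold change of all mRNAs was −0.02 in limma and 0.12 on whole reads. Replicate numbers name unrelated sows, and the deviations of same-numbered libraries correlated at 0.09 (Pearson, across 16898 genes, which are not independent). With the replicate number as a block, 0 mRNAs were called, 1 of the 9 genes was at an unadjusted p-value under 0.05 (ULK1 in place of TFEB), and 15 of the wider list were.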
